A study of Mus musculus with 106 samples.

Results

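Blimp1 knockout cells were compared with primordial germ cells (PGCs) of mouse embryos at the Early/Mid-Bud stage (E/MB). Cells were taken by their titles: 12 cells positive for the transcript of the Blimp1-null allele and 8 PGCs, that is 20 of the 106 single cells of the series, and 18193 genes were read in each. The knockout cells came from Blimp1 (-/-) embryos and the PGCs from wild-type embryos, both of strain C57BL/6. At this stage a cell entered the knockout group when its amplified cDNA held the null transcript and Oct4, whereas a PGC had to hold Blimp1 and stella, so the groups differ in the genes used to pick them as well as in genotype. How the null allele was made was not given in the sources used here beyond the statement that it still produces a non-functional transcript. The allele was carried by the whole embryo, so the neighbours of the knockout cells lacked Blimp1 too. The labels number the cells as biological replicates but name no embryo or litter. Each group was therefore treated as 1 sample, and differences are given with the SD over cells and with detection counts, but without a test.

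PGCs are the embryonic founders of sperm and eggs, and in the mouse they arise from a few cells of the posterior proximal epiblast that respond to bone morphogenetic protein (BMP). Blimp1, encoded by Prdm1, is a zinc finger repressor, and together with Prdm14 and Tfap2c it is known to keep these cells from the somatic, mesodermal course of their neighbours. Nascent PGCs silence Hox genes, regain Sox2, lower the de novo DNA methyltransferases and switch on stella, the product of Dppa3. The comparison asks which genes a cell that carries the null transcript expresses in place of those of a PGC of the same stage.

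Values are array signals on a log2 scale, raised to a floor of 6.13 (a signal of 70.2), which is the upper end of the signal of receptor and hair keratin genes that these cells are not known to use. Detection means a signal above the 95th percentile of those background probe sets on the same array. Each array carried amplified cDNA of 1 cell, amplification from such small amounts misses transcripts at random, and precision is limited by how many arrays each group has. Between 6504 and 8296 genes were detected in a knockout cell and between 6412 and 7994 in a PGC. At a stricter limit, the 99th percentile of background, the knockout cells had 3310 to 5634 genes and the PGCs 5081 to 6110, with replicates 11 (3310) and 12 (4024) of the knockout lowest. This limit was set on each array and was higher on the knockout arrays, at a mean signal of 337 against 238. It was 555 for replicate 11 and 403 for replicate 12. Counts at the stricter limit therefore rest on unlike thresholds in the 2 groups. Spiked controls also stood apart: the lys control differed by -0.69 log2 units between knockout and PGC arrays and the dap control by -1.88. Xist was detected in 0 cells of both groups, and a Y-linked transcript in 10 of 12 knockout cells and 8 of 8 PGCs.

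Some genes split the arrays in a way that follows neither stage nor cell type; the labels give no batch, and the sets of arrays spoken of here rest on the detection of Tsga8 alone. Tsga8 is among the 15 largest negative differences, and Tex101 and Gm9195, chosen after their values were seen, behaved the same way. Tsga8 and Tex101 were detected in 8 of 8 PGCs at E/MB, at E8.25 and at the early head fold stage, and in 8 of 8 pre-streak epiblast cells. Both were detected in 8 of 17 precursors of the Late-Streak/0-Bud stage (LS/0B), replicates 1 to 8, and in 0 of the other 9. Xist was detected in 8 of those other 9 and in 0 of replicates 1 to 8, so among precursors the split by Tsga8 nearly follows sex. Neither Tsga8 nor Tex101 was found in any of the 12 knockout cells, the 20 knockout cells at LS/0B or the 8 cells chosen for Blimp1 and Hoxb1. Abca4, which does not follow Tsga8, was found in each of 8 PGCs and 17 LS/0B precursors but in 1 of 12 knockout cells, and Ppp2cb in 11 of 12 knockout cells but in 0 of 8 PGCs, 0 of 8 epiblast cells and 2 of 7 precursors of the Early/Mid-Streak. Ppp2cb was also found in other wild-type cells: 8 of 10 of posterior mesoderm, 4 of 4 chosen for Blimp1 and Hoxb1 at E/MB, and 6 of the 9 LS/0B precursors without Tsga8. Abca4 was found in 6 of 10 mesoderm cells and in 0 of those 4 Blimp1 and Hoxb1 cells. Naa20 was found in 11 of 12 knockout cells and 0 of 8 PGCs. Since Tsga8 was detected on all 8 PGC arrays and on 0 of the 12 knockout arrays, genotype and set of arrays cannot be told apart for any gene of this contrast. Tsga8, Tex101, Gm9195, Abca4, Ppp2cb and Naa20 are not read as differences of the cells, although they stand in the counts over all genes. For several genes named below, detection on the epiblast arrays or in those precursor replicates, which share the pattern of the PGC arrays, is given beside the result. The part of the array sets, and of sex among the precursors, in these results was not tested.

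Prdm1, the gene targeted in the embryos, was read by 1 probe set. Its signal lay between 6.13 and 10.32 in the knockout cells, with a median of 7.52, and between 10.14 and 11.28 in the PGCs, with a median of 10.57. It was detected in 9 of 12 and 8 of 8 cells, and the brightest knockout cell (replicate 9) lay above the dimmest PGC. The place of this probe set relative to the deleted part was not given in the sources used here, and the null allele is transcribed, so this level neither checks the labels nor measures the loss of the protein. Dppa3 and Prdm1 were required of PGCs, Pou5f1 of knockout cells, and Ifitm3 (fragilis) was used in screening, so their differences describe the selection.

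Gja1, Hoxb2 and Sox2 separated the groups cell by cell. Gja1 encodes connexin 43, a gap junction channel. Its signal ran from 9.05 to 11.80 in the knockout cells, with a median of 11.05, and stood at the floor of 6.13 in every PGC. All 12 knockout cells passed the detection limit and 0 of 8 PGCs did, for which exact (Clopper-Pearson) 95% intervals of the share of cells are 73.5% to 100% and 0% to 36.9%, covering counting error only and taking the cells as independent. These intervals do not allow for the choice of Gja1, which had the largest positive difference in the same cells. The mean difference was 4.65 log2 units, at least 15.2-fold on the linear scale. This lower bound, used wherever a fold is given, takes the dim cells at their detection limits, or at their own values where these are higher. Gja1 was present in 8 of 8 epiblast cells at a mean of 10.78 and in 8 of 8 of the precursors with Tsga8 and 6 of the 9 without it. Of 10 measured connexin genes, Gja1 alone differed by at least 1 log2 unit, and the other abundant member, Gjc1, was 9.24 in knockout cells and 9.69 in PGCs.

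Hoxb2, an anterior Hox gene used by posterior mesoderm at this stage, ran from 8.63 to 10.31 in the knockout cells (median 9.25) and stood at the floor in all 8 PGCs. It was detected in 12 of 12 against 0 of 8 cells and was at least 5.66-fold higher. It was detected in 4 of the 8 precursors with Tsga8, in 3 of the 9 without it and in 0 of 8 epiblast cells. Sox2, a transcription factor of pluripotent cells and germ cells, showed the reverse. The PGCs ranged from 9.43 to 11.79 with a median of 11.35, while 11 knockout cells stood at the floor and the remaining one (replicate 12) reached 7.18. The groups did not overlap for any of these 3 genes, and all 3 kept their full detection counts at the stricter limit except that Sox2 was then detected in 0 of 12 knockout cells. Sox2 was detected in 6 of the 9 precursors without Tsga8, in 1 of the 8 with it and in all 8 epiblast cells.

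**Figure D1:**
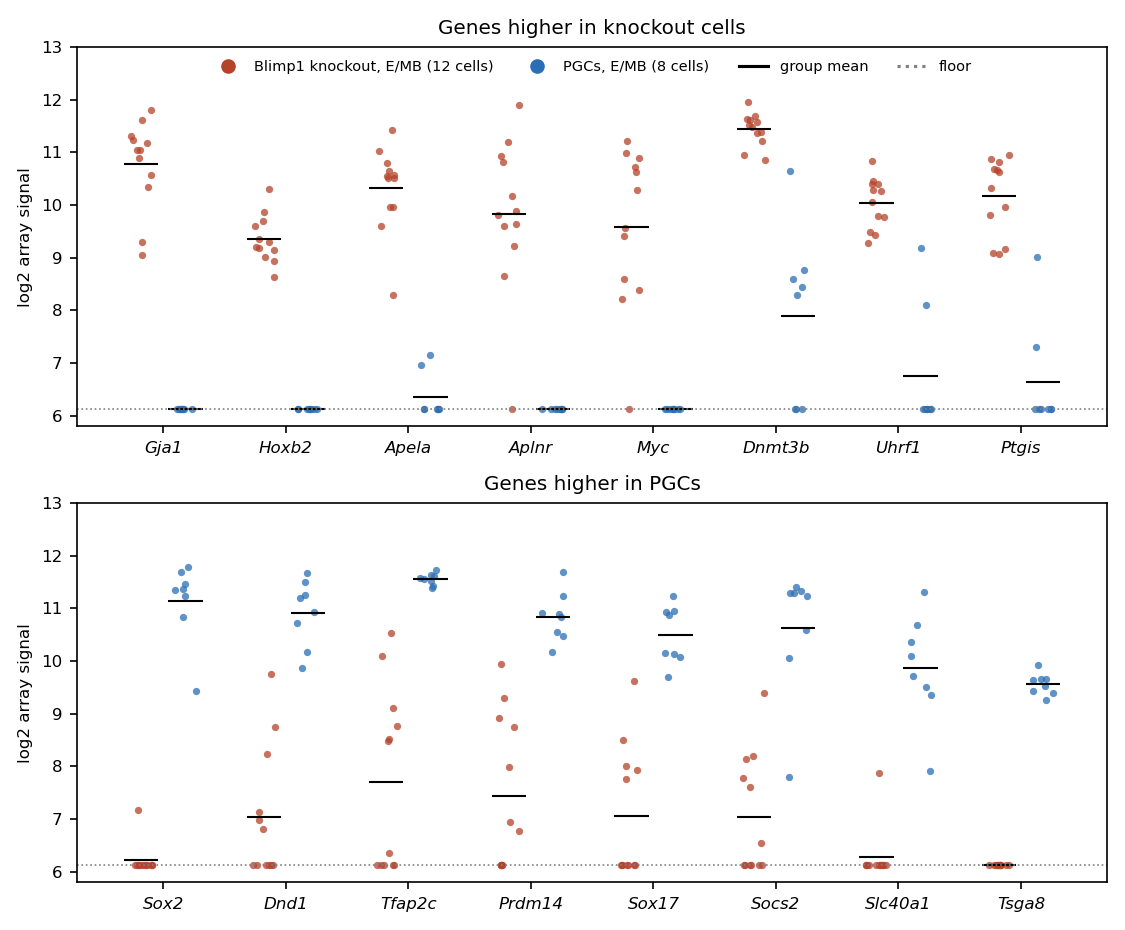
Floored log2 array signal of 16 genes in each of 12 Blimp1 knockout cells and 8 PGCs at E/MB, 1 point per cell, with group means as bars and the floor of 6.13 as a dotted line. For Gja1 and Hoxb2 every knockout cell lies above every PGC, and for Sox2, Tfap2c and Prdm14 every PGC lies above every knockout cell with the signals as deposited (with scaling to the spiked controls Tfap2c and Prdm14 overlap); Tsga8 follows a set of arrays.

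Promoter sequence was available from RefSeq (GRCm38.p6) as windows from 250 bases before to 50 bases after a gene's start. The windows of 2 of the 3 marker genes, Gja1 on chr10:56377050-56377349 and Sox2 on chr3:34649745-34650044, both on the plus strand, are shown because these genes separated the groups in every cell. The windows of Uhrf1 on chr17:56303087-56303386 and Spin2c on chrX:153832043-153832342, both on the plus strand, are shown because they are the ones among the 15 largest positive differences that hold the letters AGNGAAAG, the core of the motif known for Blimp1. Both strands were searched, and matches are in capitals.
Gja1: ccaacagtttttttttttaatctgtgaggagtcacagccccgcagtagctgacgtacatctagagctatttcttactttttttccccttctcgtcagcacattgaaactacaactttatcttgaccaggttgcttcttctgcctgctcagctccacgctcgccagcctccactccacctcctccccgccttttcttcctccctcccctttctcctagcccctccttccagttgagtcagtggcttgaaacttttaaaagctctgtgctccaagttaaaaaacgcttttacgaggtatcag
Sox2: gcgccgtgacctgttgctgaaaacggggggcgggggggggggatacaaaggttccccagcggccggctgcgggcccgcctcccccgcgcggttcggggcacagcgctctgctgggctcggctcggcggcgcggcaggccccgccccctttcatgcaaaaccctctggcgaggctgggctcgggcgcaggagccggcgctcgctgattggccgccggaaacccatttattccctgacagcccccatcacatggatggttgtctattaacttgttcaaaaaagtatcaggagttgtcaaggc
Uhrf1: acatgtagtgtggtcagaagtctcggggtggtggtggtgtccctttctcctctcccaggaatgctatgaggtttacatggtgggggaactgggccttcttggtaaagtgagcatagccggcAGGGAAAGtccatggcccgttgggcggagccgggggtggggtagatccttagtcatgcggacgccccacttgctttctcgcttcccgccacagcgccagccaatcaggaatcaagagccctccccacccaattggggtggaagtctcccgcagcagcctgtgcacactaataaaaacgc
Spin2c: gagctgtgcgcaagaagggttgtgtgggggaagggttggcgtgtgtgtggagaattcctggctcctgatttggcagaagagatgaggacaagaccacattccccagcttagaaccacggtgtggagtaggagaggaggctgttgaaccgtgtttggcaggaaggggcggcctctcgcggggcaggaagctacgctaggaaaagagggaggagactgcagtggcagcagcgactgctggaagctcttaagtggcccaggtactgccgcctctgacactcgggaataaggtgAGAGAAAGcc
The match in the Uhrf1 window reads AGGGAAAG and that in Spin2c AGAGAAAG; the Gja1 and Sox2 windows and a further Uhrf1 window on chr17:56304063-56304362 held 0 matches. Over genes higher in the knockout, 8.22% of windows (62 of 754) held the motif, over genes lower 7.94% (56 of 705), over all windows 8.63% (2836 of 32851) and over those of broadly detected genes 7.16%. These shares lie close to each other. Among the 15 largest positive differences 10 genes had a window, and 2 of 11 windows held a match. Among the 15 largest negative differences 5 genes had a window, and 1 of 6 windows, not shown here, held a match. A match is a run of letters in this window and was not tested as a binding site.

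Across all genes, 728 of 18193 (4.0%) stood higher in the knockout cells and 657 (3.61%) lower, counting differences from 1 log2 unit up. Among the 7250 broadly detected genes, those present in 50% or more of the 106 cells, 584 (8.06%) were higher and 452 (6.23%) lower. The median difference was 0 over all genes and 0.0064 over broadly detected ones. Scaling the arrays to the spiked controls moved the latter median to 0.50 and the split to 1700 higher against 275 lower, so small positive differences depend on the scaling; of the genes named here, those that drop under 1 log2 unit with that scaling are said to do so. In 27 genes (0.148%) every knockout cell lay above every PGC, and in 77 (0.423%) every one lay below. Of these, 18 and 41 also differed by at least 1 log2 unit and 10 and 14 by at least 2. The first count was 49 without knockout replicate 12. These counts depend on the scaling: 81 higher and 6 lower with the spiked controls, and 131 and 6 with lys alone. Beside Gja1 and Hoxb2, the non-overlapping genes higher by at least 2 were Apela, Hoxb1, Dnmt3b, Ptgis, Uhrf1, Ppp2cb, Myh10 (non-muscle myosin heavy chain, 2.38) and Parvb (a focal adhesion protein, 2.32). Those lower by at least 2 held Sox2, Dppa3, Dnd1, Tfap2c, Prdm14, Sox17, Slc40a1, AU015836, the junction protein gene F11r (-2.32) and the laminin gene Lama3 (-2.27), together with Tsga8, Tex101, Gm9195 and Abca4. With either control scaling, 6 of these 14 lower genes still stood apart, namely Sox2, Dppa3, AU015836, Tsga8, Tex101 and Gm9195, while Dnd1, Tfap2c, Prdm14, Sox17, Slc40a1, F11r, Lama3 and Abca4 then overlapped. Of the 10 higher genes, Ptgis and Uhrf1 overlapped with the spiked controls and 0 with lys. Myh10, Parvb, F11r and Lama3 were singled out after their values were seen.

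**Figure D2:**
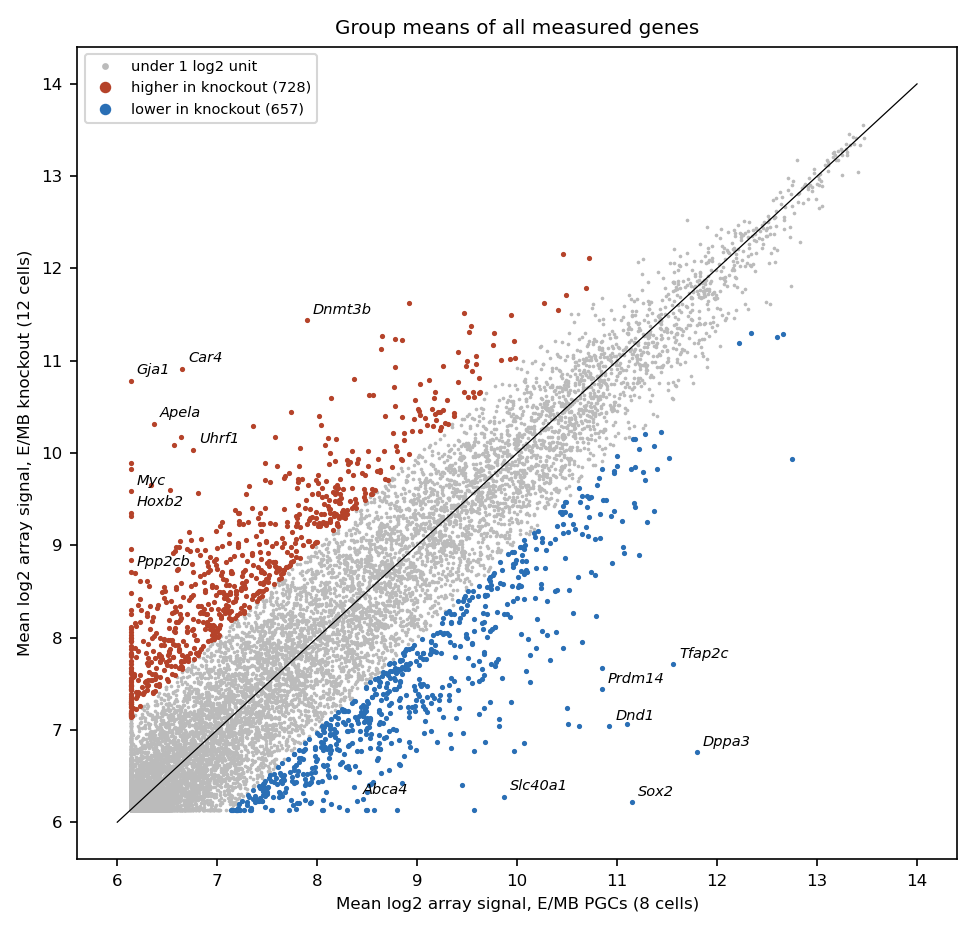
Mean log2 array signal of each of 18193 genes in 12 knockout cells (vertical) against 8 PGCs (horizontal), with genes differing by at least 1 log2 unit coloured and the line of equality drawn. Gja1, Apela, Hoxb2 and Myc lie at or near the floor in PGCs and between 9.36 and 10.78 in knockout cells, while Sox2, Dppa3, Dnd1, Tfap2c and Prdm14 lie far below the line.

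The 15 largest positive differences were led by Gja1 and Car4, a membrane carbonic anhydrase that averaged 10.91 ± 1.63 (SD, n = 12) in knockout cells and 6.65 ± 1.46 (n = 8) in PGCs. A single PGC (10.26) carried Car4, above the lowest knockout cell (7.84), so its groups overlapped. Apela, a peptide ligand, and Aplnr, the G protein-coupled receptor it binds, were both in this set. Apela ranged from 8.29 to 11.42 in knockout cells and from 6.13 to 7.16 in PGCs, a mean difference of 3.95, or 2.02 when both of its probe sets were averaged. Aplnr was detected in 11 of 12 knockout cells and 0 of 8 PGCs and was at least 6.23-fold higher. Hoxb1, the most anterior gene of its cluster, ranged from 8.58 to 11.24 in knockout cells and stood at the floor in all PGCs, at least 8.24-fold higher. Myc, the growth-promoting transcription factor, was detected in 11 of 12 knockout cells (median 9.92) and 0 of 8 PGCs, at least 4.96-fold higher. It was detected in 8 of 8 epiblast cells as well.

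Further members of this set act in nucleotide metabolism, chromatin and cell shape. Uhrf1, which brings the maintenance methyltransferase to replicated DNA, ranged from 9.28 to 10.83 in knockout cells, whereas 6 of 8 PGCs lacked it and the highest PGC stood at 9.19. Its difference of 3.28 was 1.69 as a mean over its 2 probe sets. Prps1, a phosphoribosyl pyrophosphate synthetase, had a difference of 3.31, with 12 of 12 against 1 of 8 cells positive. Ptgis, the prostacyclin synthase gene, was higher by 3.53, and its dimmest knockout cell (9.07) lay just above the brightest PGC (9.02). Spin2c, a spindlin-family gene, was higher by 3.52, the zinc finger gene Morc4 by 3.19 and at least 4.41-fold, Amotl2, an angiomotin that links junctions to actin, by 3.08, and Greb1l by 2.94. None of these differences was tested.

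The 15 largest negative differences included the germ cell regulators Dnd1, Tfap2c, Sox17 and Prdm14, described below, and genes with other roles. Slc40a1, which encodes the iron exporter ferroportin, ranged from 7.91 to 11.31 in PGCs, and in the knockout cells 11 lacked it and 1 reached 7.87, a difference of -3.59. Socs2, an inhibitor of cytokine signalling, had medians of 11.25 in PGCs and 6.34 in knockout cells and a difference of -3.58 (-1.28 as a mean over its probe sets). It was detected in 8 of 8 epiblast cells. Plcg2, a phospholipase C, differed by -3.26, Gstm1, a glutathione transferase, by -3.21 and Uap1l1 by -3.20. Sox3, a relative of Sox2 in neural and germ cells, ranged from 9.79 to 11.74 in PGCs and was detected in 5 of 12 knockout cells. The neuronal filament gene Ina was detected in 7 of 8 PGCs and 1 of 12 knockout cells. AU015836, a gene with no role given here, ranged from 10.37 to 11.79 in PGCs and from 6.13 to 9.45 in knockout cells.

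Counts of list members, here and below, are to be read beside the shares over all genes, 4.0% higher and 3.61% lower. Over broadly detected genes these shares were 8.06% and 6.23%. The list members were chosen with earlier results of these data known, so the share of a list is not a test of its category. Most measured genes of the germ cell specification list were lower. Of 17 measured members, 11 (64.7%) were lower by at least 1 log2 unit and 0 were higher, and the median difference was -2.18, against 0 over all genes. Without Prdm1, Dppa3 and Ifitm3, which were used to choose cells, 8 of 14 were lower and the median was -1.54. Tfap2c, the AP-2 gamma transcription factor, ranged from 11.39 to 11.74 in the PGCs with an SD of 0.11. In the knockout cells it was detected in 6 of 12, from 6.13 to 10.53, and the difference was -3.85. Prdm14, the PR-domain factor that keeps PGCs pluripotent, ranged from 10.17 to 11.68 in PGCs and from 6.13 to 9.94 in knockout cells, where 7 of 12 carried it (4 of 12 at the stricter limit). Dnd1 binds RNA, and PGCs without it are lost; it was detected in 5 of 12 knockout cells and differed by -3.88. Sox17, known for endoderm and for germ cells, differed by -3.44 with 5 of 12 against 8 of 8 cells. In none of the 4 did a knockout cell reach the lowest PGC with the signals as deposited, but in all 4 the groups overlapped with scaling to the spiked controls.

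Other members of the list overlapped between groups. Kit, the receptor for stem cell factor, ranged from 6.13 to 11.10 in knockout cells and from 7.70 to 11.05 in PGCs, so the brightest knockout cell (replicate 9) stood above every PGC. Its difference was -2.18. Alpl, the tissue-nonspecific alkaline phosphatase long used to stain PGCs, was detected in 11 of 12 knockout cells and differed by -1.95. Rhox9, a homeobox gene of the X chromosome, was detected in 5 of 8 PGCs and 0 of 12 knockout cells. Ifitm1, which encodes an interferon-induced membrane protein, was 11.81 ± 0.56 in knockout cells and 12.74 ± 0.21 in PGCs, under the size counted. Dppa3 was detected in 4 of 12 knockout cells, at most at 8.29, against 11.56 or more in the PGCs that were chosen for it. Dazl, a later germ cell gene, was at the floor in all 20 cells. Knockout cells carried between 2 and 10 detected members of the list and PGCs between 10 and 14.

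The pluripotency network was divided. Of 21 measured genes, 6 were lower by that size, 1 was higher and 14 differed by less, with a median of -0.26 that was -0.01 without PGC replicate 5 and 0 with arrays scaled to the lys control. Sox2 and Klf2 gave the 2 most negative differences. Klf2, a Kruppel-like factor of the naive state, was detected in 8 of 8 PGCs and 1 of 12 knockout cells (-2.18). Nanog ranged from 8.42 to 11.29 in PGCs and was detected in 5 of 12 knockout cells, up to 10.59 (-2.03). Gdf3, a ligand of the Nodal type, was detected in 7 of 8 PGCs and 1 of 12 knockout cells (-1.94). Pou5f1, which knockout cells had to express, was detected in every cell of both groups and differed by -1.29, and Klf5 by -1.34; both were under 1 log2 unit in size with scaling to the spiked controls, and Klf5 also as a mean over its probe sets. Tbx3, a T-box factor used in mesoderm as well as in stem cells, was the higher member at 8.74 ± 1.47 against 6.61 ± 1.34, although the mean over its probe sets gave 0.56. With the floor at the 99th percentile of background, Klf2, Nanog, Gdf3, Klf5 and Tbx3 were all under 1 log2 unit in size. Sox2 and Pou5f1 were not. Esrrb was detected in 0 knockout cells and 2 PGCs, and Tcl1 in 0 cells of both groups.

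Primed epiblast genes gave 4 higher and 2 lower of 14. Dnmt3b and Car4 were the 2 largest, with Fgf15, which encodes a fibroblast growth factor (FGF), at 7 of 12 against 0 of 8 cells, and the claudin gene Cldn6 at 6 of 12 against 1 of 8, whose difference of 1.14 fell under 1 without knockout replicate 6, 7 or 9. Nodal, the signal that maintains the epiblast, was detected in 0 knockout cells and 5 PGCs (-1.57, under 1 as a mean over its probe sets), and Sox3 was the other lower member. Fgf5 and Otx2, which mark earlier epiblast, were at the floor in all 20 cells. The differences within this list thus had both signs.

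Of 20 primitive streak and nascent mesoderm members, 8 (40%) exceeded the PGC mean by 1 log2 unit or more, 1 fell as far below, and the median difference was 0.49. The share going up was 4.0% over all genes and 8.06% over broadly detected ones. Since this list was drawn up with earlier results of these data known, its share does not test the category. Apela and Aplnr, both among the 15 largest positive differences, belong to the 8. The others were Mesp1, Wnt3a, Sp5, Cdx1, Mixl1 and Cdx4. Mesp1, a bHLH factor of early mesoderm, was detected in 11 of 12 knockout cells (median 11.26) and in 6 of 8 PGCs (median 7.85), and 1 PGC exceeded every knockout cell at 12.02. Wnt3a, a ligand of the streak, was detected in 5 of 12 knockout cells and 0 of 8 PGCs. Cdx1 and Cdx4, caudal factors that act on Hox genes, were detected in 8 and 6 of 12 knockout cells and in 1 PGC each. Mixl1 averaged 7.96 against 6.66. Evx1, a posterior homeobox gene, was abundant in both groups at 10.71 ± 0.72 and 10.27 ± 0.85. Fgf8 was the lower member (-1.15), under 1 with scaling to the spiked controls and without PGC replicate 1 (-0.97). With the floor at the 99th percentile of background, Wnt3a, Sp5, Cdx1, Mixl1, Cdx4 and Fgf8 were all under 1 in size. Apela, Aplnr and Mesp1 were not. Eomes and Mesp2 were at the floor in all cells.

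Of 33 Hox genes, 6 stood 1 log2 unit or more above the PGCs and 0 as far below. The remaining 27 differed by less, and 13 of the 33 were detected in no cell of both groups. Hoxd9 was detected in 10 of 12 knockout cells against 2 of 8 PGCs (2.07), Hoxd1 in 7 against 0 (1.83), Hoxa3 in 7 against 0 (1.43, under 1 as a mean over probe sets) and Hoxb6 in 6 against 0 (1.36). With the floor at the 99th percentile of background these 4 differences fell under 1, while those of Hoxb1 and Hoxb2 did not. Hoxb3 was detected in 12 of 12 knockout cells and in 7 of 8 PGCs, at 8.17 ± 0.59 and 7.55 ± 0.42. Hoxc6 was detected in 7 of 8 PGCs and 3 of 12 knockout cells (-0.44), Hoxc5 in 3 and 2 (-0.45) and Hoxb5 in 4 and 6 (0.0060), all 3 chosen after their values were seen. Hox summed levels, as the mean over members in a cell, ran from 6.68 to 7.09 in knockout cells and from 6.22 to 6.49 in PGCs.

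Allantois and lateral mesoderm genes gave 4 higher and 0 lower of 21. Isl1, a LIM factor of lateral and cardiac mesoderm, was detected in 10 of 12 knockout cells and 2 of 8 PGCs (2.23). Foxf1, a forkhead factor of the allantois, was detected in 6 of 12 and 0 of 8 cells. Bmp4 averaged 11.30 ± 0.68 in knockout cells and 9.76 ± 2.17 in PGCs, where 7 of 8 cells carried it. Hand1, a bHLH factor of extraembryonic mesoderm, was detected in every cell of both groups and was higher by 1.47. Bmp4 and Hand1 transcripts were thus present in PGCs too.

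Genes of mesenchymal transition, by which epithelial cells leave a sheet, were higher in 6 of 17 and lower in 0, with a median of 0.53. Snai1, the zinc finger repressor of E-cadherin, was detected in 10 of 12 knockout cells and 0 of 8 PGCs, at least 2.25-fold higher. Cdh11, a mesenchymal cadherin, was detected in 8 of 12 against 0 of 8 (at least 1.76-fold), and Pdgfra, a growth factor receptor of mesoderm, in 7 of 12 against 0 of 8. Cdh2, or N-cadherin, averaged 8.26 ± 1.16 against 6.69 ± 1.13, and Zeb2 was detected in 7 of 12 against 0 of 8. Pdgfra and Zeb2 were under 1 log2 unit as means over their probe sets. With the floor at the 99th percentile of background, Snai1, Pdgfra, Cdh2 and Zeb2 were all under 1, while Cdh11 was not. Vim, which encodes the filament vimentin, was 12.10 ± 0.38 against 11.26 ± 0.79, a difference of 0.85.

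Epithelial genes had differences of both signs, with 4 of 19 higher and 4 lower. Keratins 8 and 18 were higher: Krt8 averaged 11.26 ± 0.88 against 8.64 ± 2.00 and Krt18 11.31 ± 0.89 against 9.52 ± 2.04. Spint1, a membrane protease inhibitor, was detected in 9 of 12 against 2 of 8 cells (2.40). Cldn7, a tight junction claudin, differed by -2.63 and Esrp1, a splicing factor of epithelia, by -2.14. Ap1m2 differed by -1.59. Cdh1, or E-cadherin, ranged from 9.98 to 11.24 in PGCs. In knockout cells its median was 10.98, close to the PGC median of 11.03, but 2 cells stood at the floor and 3 others between 7.31 and 8.54, which gave a mean difference of -1.40 that fell under 1 with scaling to the spiked controls. Epcam was 9.28 ± 1.82 in knockout cells and 9.99 ± 0.92 in PGCs.

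**Figure D3:**
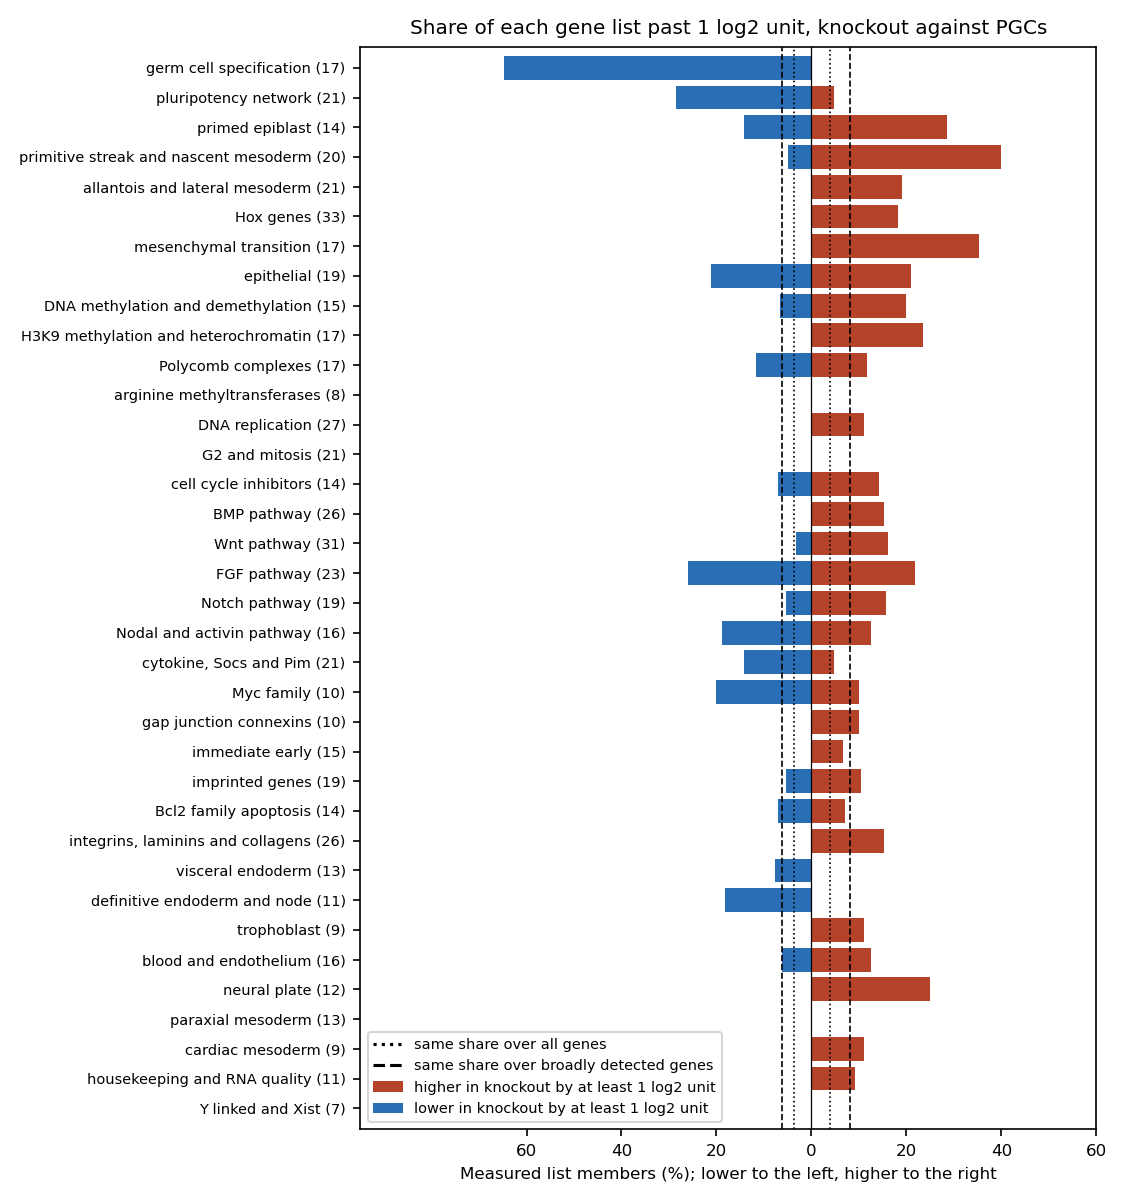
Share of the measured members of 36 gene lists (number measured in brackets) that were higher (right) or lower (left) in knockout cells than in PGCs by at least 1 log2 unit; lines mark the shares over all genes (4.0% and 3.61%) and over broadly detected genes (8.06% and 6.23%). Germ cell specification has the longest bar to the left (64.7%), and primitive streak and mesenchymal transition the longest to the right.

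DNA methylation genes differed in a few members. Dnmt3b, a de novo methyltransferase, ranged from 10.86 to 11.95 in the knockout cells with an SD of 0.31, and from 6.13 to 10.65 in PGCs, where 5 of 8 cells carried it. Dnmt3a, the other de novo enzyme, was detected in 10 of 12 knockout cells and 1 of 8 PGCs, a difference of 2.08 that was 0.40 as a mean over its probe sets. With Uhrf1, 3 of 15 members were higher, and Gadd45a, a stress-induced gene linked to demethylation, was lower (-1.69). Dnmt1, the maintenance enzyme, was 10.76 ± 0.34 against 10.58 ± 0.24, and Tet1 8.34 ± 0.99 against 8.81 ± 1.39. Both Dnmt3b and Uhrf1 were detected in all 8 epiblast cells and all 8 precursors with Tsga8.

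Of 17 genes for H3K9 methylation and heterochromatin, 4 were higher and 0 lower: Ehmt1 (GLP, 1.87), the histone chaperone Daxx (1.31), Kdm4a (1.12) and the HP1 gene Cbx1 (1.04), the last 2 under 1 as means over their probe sets, without knockout replicate 7 and without 1 or more of the PGCs. Ehmt1 was detected in 12 of 12 knockout cells and 5 of 8 PGCs, and its partner Ehmt2 in every cell of both groups (9.78 ± 0.60 and 10.06 ± 0.82). Polycomb complexes gave 2 higher and 2 lower of 17, with Phc1 at 9.42 ± 0.81 against 11.18 ± 0.61 and Ezh2 at 10.88 ± 0.43 against 10.71 ± 0.53. The Polycomb shares of 11.8% each way stood beside 8.06% higher and 6.23% lower over broadly detected genes. Of 8 arginine methyltransferase genes, 0 passed in either direction; Prmt5, a partner of Blimp1 in germ cells, was 9.83 ± 0.47 and 10.38 ± 0.62. The medians of these last 2 lists, -0.06 and -0.31, were 0.46 and 0.12 with arrays scaled to the spiked controls. Leaving out 1 cell gave -0.12 (without PGC replicate 6) to 0.06 (without PGC replicate 1) for Polycomb genes, whose sign therefore changed. For arginine methyltransferases it gave -0.46 (without PGC replicate 3) to -0.18 (without PGC replicate 7).

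BMP pathway genes were higher in 4 of 26 and lower in 0. Besides the ligand Bmp4 these were Smad1, a transducer of the signal (1.51), Smad6, an inhibitor induced by it (2.52, detected in 11 of 12 against 0 of 8 cells), and the target Id2 (9 of 12 against 0 of 8, under 1 as a mean over its probe sets). The targets Id1 and Id3 were abundant in both groups, Id1 at 11.33 ± 0.68 against 11.97 ± 0.39 and Id3 at 11.44 ± 0.35 against 11.04 ± 0.68. Wnt genes gave 5 higher and 1 lower of 31. Among them Wls, which carries Wnt ligands to the cell surface, averaged 10.94 ± 0.52 in knockout cells and 8.78 ± 1.45 in PGCs, the ligand Wnt5b was higher by 2.26, and Porcn, which lipidates the ligands, differed by -1.48, under 1 with scaling to the spiked controls.

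FGF genes went both ways, with 5 higher and 6 lower of 23. The ligand Fgf3 was detected in 9 of 12 knockout cells and 0 of 8 PGCs, at least 3.10-fold higher, and the receptor Fgfr1 in 12 against 5 (1.78, under 1 as a mean over its probe sets). Among the feedback inhibitors, Dusp6 was 8.51 ± 1.61 in knockout cells and 10.38 ± 0.34 in PGCs, Spry1 was detected in 2 of 12 against 5 of 8 cells, Spred1 and Spred2 differed by -1.38 and -1.36, and Dusp4 was higher by 1.41. The 2 Spred differences were under 1 in size with scaling to the spiked controls and as means over their probe sets. In the Notch pathway, the ligand Jag1 (1.72, under 1 as a mean over its probe sets) and the target Hes1 (1.21) were higher, and 3 of 19 members were higher in all. Nodal and activin genes gave 2 higher and 3 lower of 16, with Smad2 higher (1.47, under 1 as a mean over its probe sets). Of 21 cytokine, Socs and Pim genes 1 was higher and 3 lower, led by Socs2 and Kit; the leukaemia inhibitory factor receptor Lifr was the higher one (1.70, under 1 as a mean over its probe sets).

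Members of the Myc family differed in opposite directions. Myc was higher by 3.45, whereas Mycl, or L-Myc, averaged 7.81 ± 1.60 in knockout cells and 10.13 ± 0.32 in PGCs and Mnt, a repressor that shares the partner Max, 7.39 ± 1.21 and 9.01 ± 0.72. Mycl and Mnt were under 1 log2 unit as means over their probe sets. DNA replication genes gave 3 higher and 0 lower of 27, namely Gins2 of the replicative helicase (2.06), the ribonucleotide reductase gene Rrm2 (1.84) and the loading factor Cdc6 (1.44). That share of 11.1% higher lay near the 8.06% over broadly detected genes. Of 21 genes of G2 and mitosis, 0 passed in either direction. The cell cycle gene Rb1 was detected in 1 of 12 knockout cells and 5 of 8 PGCs (-1.65, under 1 as a mean over its probe sets).

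Imprinted and matrix genes differed in single members. Mest was detected in 10 of 12 knockout cells, up to 12.79, and 2 of 8 PGCs (2.76), and Igf2, an insulin-like growth factor, in 11 of 12 and 4 of 8 (2.70). Cdkn1c was 8.82 ± 1.39 and 8.49 ± 1.30. Of 26 integrins, laminins and collagens, 4 were higher and 0 lower; Itgb5, an integrin chain, was detected in 12 of 12 knockout cells and 6 of 8 PGCs (2.07). Col1a1, a fibrillar collagen, was detected in 4 of 12 against 0 of 8 (1.16, under 1 as a mean over its probe sets), and without knockout replicate 10 or 11 its difference was 0.92 and 0.83.

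Markers of other cell types that a dissected fragment could hold had a median difference of 0 in 6 lists and of 0.0021 in the neural plate list, and their part in the results above was not tested. Of 13 visceral endoderm genes 0 were higher and 1 lower (Apoe, -1.64), and the mean level of the list in a cell ran from 6.29 to 6.78 in knockout cells and from 6.23 to 7.05 in PGCs. Of 11 genes of definitive endoderm and node 0 were higher and 2 lower, Sox17 among them; Foxa2 was detected in 0 of 12 and 2 of 8 cells. Neural plate genes gave 3 higher of 12 (Sox11, which was under 1 as a mean over its probe sets, Cdh2 and Irx3), with 7 members in no cell. Blood and endothelium gave 2 higher and 1 lower of 16: the haemangioblast factor Etv2 was detected in 7 of 12 knockout cells and 0 of 8 PGCs, and Lmo2 in 5 of 12 and 7 of 8 (-2.25). Paraxial mesoderm gave 0 of 13, cardiac mesoderm 1 of 9 (Smarcd3, detected in 6 of 12 against 0 of 8) and trophoblast 1 of 9, which was Hand1. Over all genes the shares were 4.0% higher and 3.61% lower, and lists this small cannot be set apart from them. Among 11 housekeeping genes, Actb was 12.76 ± 0.27 and 12.59 ± 0.18, and Hprt, a purine salvage gene, was higher by 2.12.

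Among the knockout cells, genes detected in some cells and not in others were described by a rule that itself requires such a division. The 10 with the largest SD among genes detected in 25% to 75% of knockout cells were Igfbp3, Fst, Foxf1, Col9a1, Egr1, Cdh11, Cdkn1a, Crabp2, Irf1 and Pdgfra. Foxf1 stood at 10.4 to 11.4 in replicates 1, 2, 5, 10 and 11, at 7.7 in replicate 8 and at the floor in the other 6. Hoxb6 was detected in the same 6 cells as Foxf1, but at the stricter limit 3 cells held both, 2 Foxf1 alone and 1 Hoxb6 alone. Nanog and Sox3 were detected together in replicates 3, 6, 7, 8 and 9 and in no other knockout cell. Pdgfra was detected in the 7 cells that lacked Nanog and in 0 of the 5 that had it; at the stricter limit these counts were 6 and 0. Foxf1 and Nanog shared 1 cell, replicate 8, and 0 cells at the stricter limit.

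Epithelial and germ cell transcripts were also set beside Nanog, and they differed in how far they went with it. Cdh1 was detected in all 5 knockout cells with Nanog and in 5 of the other 7, and Cldn7 in 4 of the 5 and 1 of the 7. Dppa3 was detected in 4 cells, each of which had Nanog, but in only 1 of them at the stricter limit. Other germ cell genes were less divided at the usual detection limit. Prdm14 and Kit were each detected in 4 of the 5 cells with Nanog and 3 of the 7 without. For Tfap2c these counts were 3 and 3, for Dnd1 3 and 2, and for Sox17 2 and 3. Prdm14 and Tfap2c were detected together in 4 knockout cells, separately in 3 and 2, and in 3 cells both were missing. At the stricter limit Prdm14 was divided by Nanog, with 4 of the 5 cells and 0 of the 7, and Dnd1 had 2 and 0. Kit then had 4 and 2, Tfap2c 3 and 3, and Sox17 0 and 2. Irf1, an interferon response factor, was 10.43 or more in every PGC and stood between 6.13 and 8.01 in knockout replicates 1, 5, 10 and 11. Crabp2, a retinoic acid carrier, was higher by 2.36 and reached 12.09. Igfbp3 stood at 11.9 to 12.7 in replicates 3, 4, 6, 7 and 12 and at most at 8.04 in the others. Fst and Cdkn1a were detected in those 5 cells and in replicate 2, and in no other knockout cell. Sox2 was detected in none of the 5 cells with Nanog. Gja1 and Hoxb2 were detected in every knockout cell, whatever its Foxf1 or Nanog. The cells were not grouped by these values, and no average was taken over such groups. Over the 7250 broadly detected genes, the median SD was 0.75 in knockout cells and 0.92 in PGCs, and the SD was larger in knockout cells for 2670 of these genes and in PGCs for 4580.

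**Figure D4:**
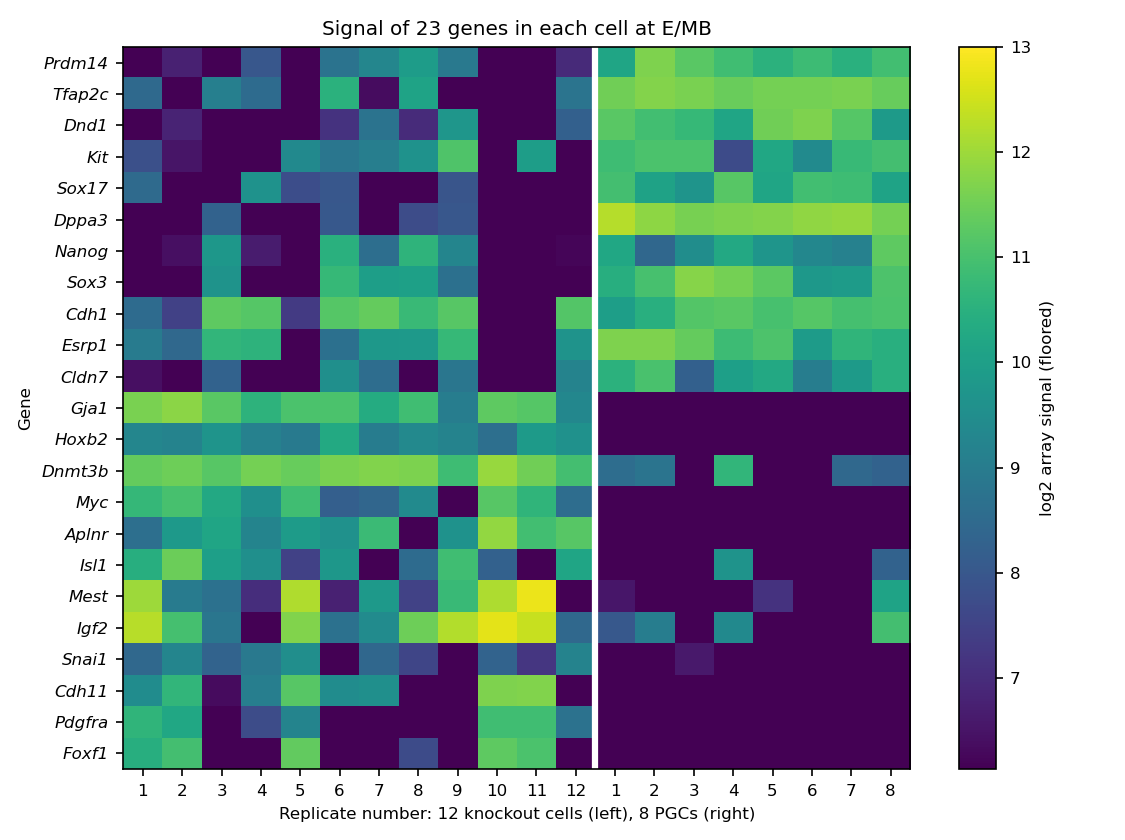
Floored log2 array signal of 23 genes (rows) in 12 knockout cells and 8 PGCs (columns, in the order of their replicate numbers). Gja1, Hoxb2 and Dnmt3b are bright in every knockout cell, while Foxf1 is bright in replicates 1, 2, 5, 10 and 11 and Nanog and Sox3 in replicates 3, 6, 7, 8 and 9.

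The same contrast at the preceding stage was read in other cells, 20 knockout cells against 17 wild-type precursors at LS/0B; there both groups were chosen for Oct4 and for Blimp1 or its null transcript. At that stage 193 genes (1.06%) were higher and 71 (0.390%) lower by at least 1 log2 unit. Of the 728 genes higher at E/MB, 99 (13.6%) were also higher at LS/0B, which is 51.3% of the 193, and 3 were lower there. Of the 657 lower genes, 48 (7.31%) were also lower, which is 67.6% of the 71, and 3 were higher. Tsga8 was detected in 8 of 17 precursors and 0 of 20 knockout cells at LS/0B, so the set of arrays differs in that contrast too. Of the precursors, 8 held Xist and 8 a Y-linked transcript, whereas all 20 knockout cells at LS/0B held a Y-linked transcript, so sex also differs in that contrast. The part of sex and of array sets in this overlap was not tested. Gja1 was higher in knockout cells by 1.90 at LS/0B, Dnmt3b by 1.51, Aplnr by 1.21 and Apela by 1.10; Dnd1 differed by -2.20, Tfap2c by -1.97 and Prdm14 by -1.48. Uhrf1 and Kit differed at E/MB and not at LS/0B, where Uhrf1 averaged 10.03 ± 0.48 in knockout cells and 9.84 ± 0.78 in precursors, and Kit 6.73 ± 0.95 and 6.73 ± 1.06; the change between stages was not tested.

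Between the stages, 539 genes (2.96%) were higher and 484 (2.66%) lower in PGCs than in precursors, against 99 (0.544%) and 123 (0.676%) in the later than in the earlier knockout cells; 28 and 29 genes were common to both steps. The wild-type step also crosses sex and array set, since 8 of 17 precursors held Xist and 9 lacked Tsga8, unlike the PGCs, and their part was not tested. All 8 precursors with Xist were among the 9 without Tsga8, so sex and array set largely coincide there. Single genes show on which side the levels lay apart. Gja1 averaged 8.85 ± 1.59 in LS/0B precursors and 6.13 in PGCs, against 10.75 ± 0.46 and 10.78 ± 0.85 in knockout cells of the 2 stages. Uhrf1 went from 9.84 to 6.76 ± 1.20 in the wild type and stood at 10.03 and 10.04 ± 0.48 in the knockout. Sox2 averaged 7.95 ± 2.28 in precursors and 11.15 ± 0.75 in PGCs, against 6.97 ± 1.36 and 6.22 ± 0.30 in the knockout. Kit was higher at E/MB than at LS/0B in both, by 3.52 in the wild type and by 1.34 in the knockout. In posterior mesoderm at E/MB, wild-type cells chosen for Oct4 and Hoxb1 without Blimp1, Gja1 averaged 9.87 ± 0.96, and Hoxb2 8.62 ± 1.29, and Sox2 stood at the floor in all 10 cells. In the 4 wild-type cells chosen for Blimp1, Oct4 and Hoxb1, Gja1 averaged 10.35 ± 1.09 and Sox2 stood at the floor. Kit averaged 6.29 ± 0.38 in mesoderm and 8.07 ± 1.81 in knockout cells. The mesoderm arrays stood apart in their hybridisation controls, at a mean of 11.23 log2 units against 9.57 on the knockout arrays, and held 6719 against 7352 detected genes on average. The part of this in the mesoderm values was not tested. Hoxb1, used to choose the mesoderm, is not compared.

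**Figure D5:**
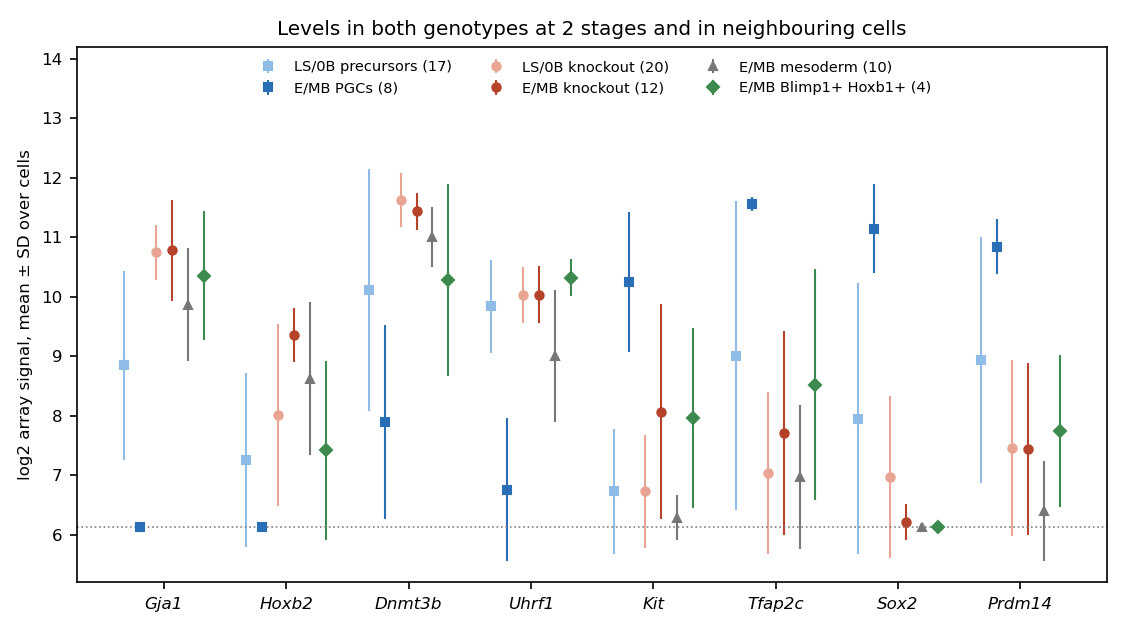
Mean floored log2 array signal with SD over cells (bars) of 8 genes in wild-type precursors and knockout cells at LS/0B and in PGCs, knockout cells, posterior mesoderm and Blimp1+ Hoxb1+ cells at E/MB, with the number of cells in brackets. Gja1, Dnmt3b and Uhrf1 lie lowest in PGCs, and Sox2, Tfap2c and Prdm14 lie highest there.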

How the data were processed

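Each sample was 1 cell: embryo fragments were dissociated, cells were picked at random, and their PCR-amplified cDNA was labelled and hybridised to an Affymetrix array, per the labels' protocols. The authors deposited linear array intensity values made with MAS5, per the submitters' processing notes; its version and scaling were not stated. The table held 45101 probe sets, of which 34945 had 1 gene symbol, and 15.3% of values stood at the lowest value, 1. Signals were raised to a floor of 70.2 (the median over cells of the 90th percentile of 126 background probe sets) and put on a log2 scale. Each of 18193 genes was read by its probe set of highest mean over all cells. A difference is the mean of the knockout cells minus the mean of the PGCs, and a gene counted as higher or lower from 1 log2 unit. No test was made, since no embryo, litter or culture is named and cells of 1 embryo are not replicates.

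Genes were named by fixed rules: the 15 largest differences each way where 75% or more of the brighter group had the gene, the 10 largest SDs among genes detected in 25% to 75% of knockout cells, and members of 36 gene lists (570 of 612 symbols measured). The members and lists were chosen with earlier results of these data known. Alternatives were other floors, probe set rules, scalings, left-out cells and a size of 2 log2 units. The steps were tested on simulated data. Python 3.11.15, numpy 2.4.6, pandas 2.3.3 and scipy 1.17.1 were used. Gene names came from the array's annotation, 18145 of them found in the RefSeq table.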

Additional observations from a re-analysis of the deposited data

Results flagged for a closer look

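Among the 8 PGCs, 163 gene and list levels were tested for a cell far from the others, with the gap to the nearest cell taken as a share of the whole range, and 25 passed the critical share of 0.526. Chance flags about 1 in 20, and genes that stand at the floor in most cells pass with a single positive cell.

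In 11 genes a single PGC stood above the other 7, which were all at the floor (a share of 1): Car4, Cldn6, Sox11 and Tbx3 in replicate 8, Egr1, Jag1 and Snai1 in replicate 3, Cdx4 and Parvb in replicate 4, Prps1 in replicate 1 and Smad6 in replicate 5. Further genes were highest in replicate 8: Dnmt3a (0.90), Mest (0.75) and Crabp2 (0.62). Replicate 4 was highest for Spin2c (0.69) and Mesp1 (0.55), replicate 5 for Col9a1 (0.76) and Cdh2 (0.55), replicate 7 for Sp5 (0.74) and Ptgis (0.59), and replicate 1 for Esrrb (0.73). At the low end stood Socs2 in replicate 4 (0.63) and Sox2 in replicate 7 (0.60). The mean level of G2 and mitosis genes was lowest in replicate 8 (0.67) and that of the FGF pathway in replicate 6 (0.53).

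Probe sets without a single gene symbol were outside the comparison of genes. Of these 10092, 10 stood higher in every knockout cell than in every PGC and 28 lower.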

How the results depend on the processing

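The count of genes higher in the knockout (728) was 375 with the mean of a gene's probe sets, 2724 with no floor, 140 with a floor at the 99th percentile of background, 1700 with scaling to the spiked controls, 2198 with scaling to lys and 86 at 2 log2 units. The count of lower genes (657) was 358, 1833, 209, 275, 215 and 85 in the same order. Genes without overlap, knockout higher (27), were 14 with the higher floor, 81 and 131 with the control scalings, 63 with only cells that held a Y-linked transcript and 52 without knockout replicates 11 and 12; knockout lower (77), 133 with no floor, 44 with the higher floor, 6 with each control scaling and 51 over broadly detected genes. Genes higher at both stages (99) were 41 with probe set means, 988 with no floor and 13 with the higher floor, and genes lower at both (48) were 25, 328 and 9, and 27 and 26 with the control scalings.

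Medians of lists with no floor were -3.24 (germ cell), -0.49 (pluripotency), 1.90 (streak), 0.34 (Hox) and 1.32 (mesenchymal). With the higher floor they were -1.40, -0.0138, 0.23, 0 and 0.11 in the same order. With scaling to lys they were -1.60, 0, 1.0, 0.26 and 0.94, and for DNA methylation 0.31 (0.29 with all spiked controls). The germ cell median was -1.54 once the genes used to select cells were left out. Leaving out 1 cell gave 700 to 816 higher and 642 to 756 lower genes, 27 to 49 and 77 to 101 without overlap, and a pluripotency median of -0.37 to -0.0105.

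Of 127 named genes past 1 log2 unit, 105 stayed past it with probe set means, 68 with the higher floor and 120 with the spiked controls. The 59 that fell under it with the higher floor held members of the Hox, streak, mesenchymal and pluripotency lists. In any setting run, 0 reversed. The lys scaling, leaving out both replicates and the list without selected genes were chosen after seeing the data. The causes were not tested. No paired analysis was possible because the cells of a replicate number share no embryo or other source in the labels. Signals near the floor limit what was detectable: 0 of 8 PGCs allows, by counting error alone and if cells were independent, a share of cells above the limit of up to 36.9%, and missed transcripts come on top.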
